A study of Caenorhabditis elegans with 30 samples.

Results

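The receptor tyrosine kinase gene *old-1* was overexpressed from its own promoter, and the comparison described here was that of *old-1p::old-1* animals with non-transgenic animals of the same strain. Its members were chosen by their labels and comprised 6 of the 30 libraries of the series, 3 from *old-1p::old-1* animals and 3 from non-transgenic animals, with replicates A, B and C in each group. RNA of whole *C. elegans* hermaphrodites at the L4 larval stage, grown at 20 °C, was sequenced. Some of the other libraries of the series compared animals with and without an extract of the oomycete *M. humicola*. These animals were wild-type N2, the mutant *flor-1(icb93)* or the deletion mutant *old-1(ok1273)*. The rest carried *old-1* under the epidermal *dpy-7* promoter or, as the control for it, a hygromycin resistance marker alone. The *old-1p::old-1* animals carried the extrachromosomal array *icbEx308*, which holds *old-1p::OLD-1::GFP*, a *bus-1p::GFP* marker and the carrier plasmid pBJ36, together with the integrated reporter *icbIs4* (*chil-27p::GFP* and *col-12p::mCherry*). The labels name *icbIs5* for the non-transgenic animals, so the labels of the 2 groups differ in the reporter although a single strain, MBA1013, is given for both. An extrachromosomal array is present in many copies, is lost from some cells and is inherited by only part of the progeny, and 1 array line was used, so an effect of the array cannot be told apart from an effect of *old-1*. The libraries held 25636326 to 28592228 estimated counts in *old-1p::old-1* animals and 24342790 to 30303505 in non-transgenic animals.

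*C. elegans* meets oomycetes as natural pathogens that infect through the cuticle. It answers their presence, or that of a pathogen extract, with the oomycete recognition response (ORR), in which the epidermis switches on *chil* genes, which encode chitinase-like proteins known to hinder the attachment of oomycetes. OLD-1 and the pseudokinase FLOR-1 are receptor tyrosine kinases related to KIN-16, and both are needed in the epidermis for this response. The comparison addresses which genes change when the receptor gene itself is raised in the absence of the pathogen.

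The 6 libraries, all labelled L4, differed in the level of genes that change with reproductive stage, and stage itself was not measured. Yolk protein and oocyte genes are switched on as hermaphrodites pass from L4 to adulthood, and their 15 members had a mean level of 7.20, 10.10 and 10.39 on the log2 scale of CPM (counts scaled to the TMM-adjusted library total) in replicates A, B and C of *old-1p::old-1* animals, against 8.65, 8.59 and 5.40 in non-transgenic animals. *vit-2*, a yolk protein gene, had 1361, 13620 and 16931 CPM in *old-1p::old-1* animals and 5649, 5140 and 286 CPM in non-transgenic animals. Replicates B and C of the transgenic animals were therefore the highest, replicate C of the non-transgenic animals was the lowest, and the groups overlapped. The 29 major sperm protein genes, which are expressed during spermatogenesis at L4, had means of 5.89, 5.12 and 4.5 in *old-1p::old-1* animals, against 3.28, 3.87 and 5.6 in non-transgenic animals. The adult cuticle collagen *col-19* followed the yolk genes, with 86.7, 851 and 855 CPM in *old-1p::old-1* animals, against 192, 173 and 41.0 CPM in non-transgenic animals. All 14 defining markers of epidermis, intestine, muscle, pharynx, neurons, yolk and oocytes that were examined had counts in every library.

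**Figure D1:**
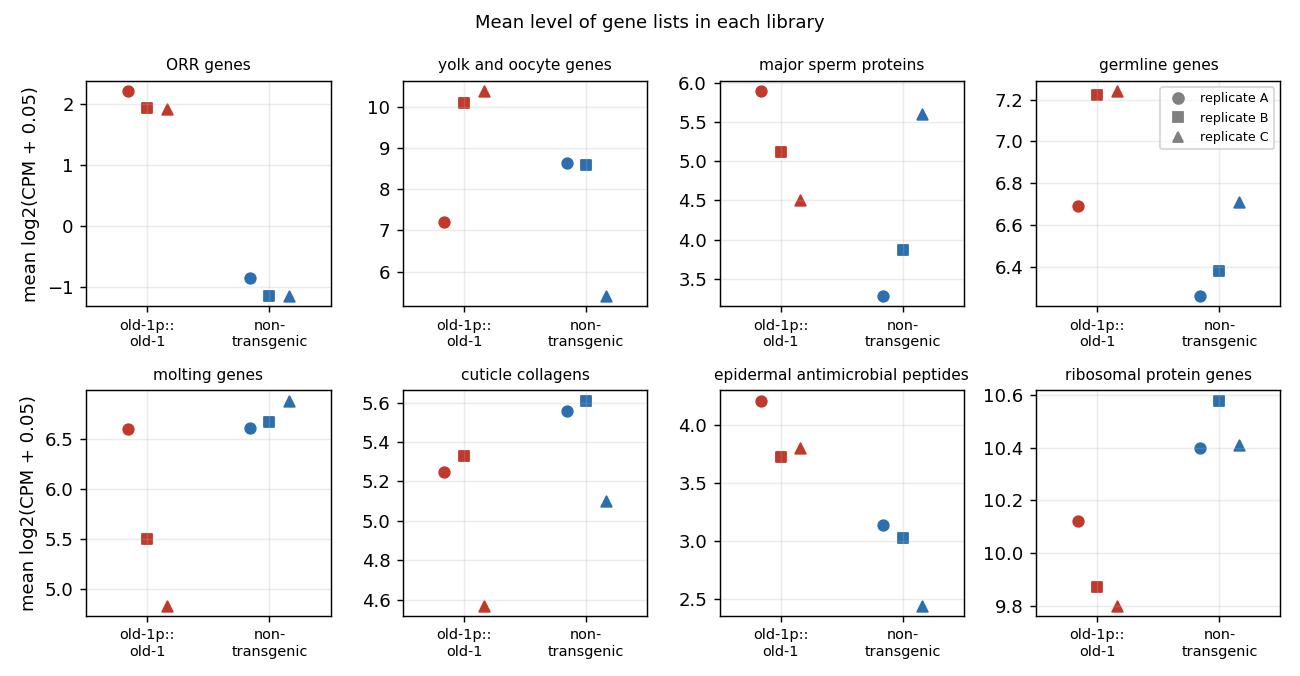
Each panel plots the mean log2(CPM + 0.05) of the tested genes of 1 list in each library, with *old-1p::old-1* animals on the left, non-transgenic animals on the right and the marker shape giving the replicate; each panel has its own scale, which does not start at 0. The ORR genes sat between 1.92 and 2.21 in the transgenic libraries, above the -1.15 to -0.85 of the non-transgenic ones, while the yolk and oocyte genes overlapped between the groups.

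*old-1* (chromosome II, 9866464 to 9868747, build WBcel235) marked the transgenic libraries. It had 46, 43.1 and 61.8 CPM in *old-1p::old-1* animals, against 0.974, 0.619 and 0.588 CPM in non-transgenic animals. All 3 transgenic libraries stood far above the non-transgenic ones, at 50.3 ± 10.1 CPM and 0.727 ± 0.214 CPM (SD, n = 3 each), a log2 fold change of 6.11 (standard error 0.34, adjusted p = 0.00821, edgeR's quasi-likelihood test). The transgenic level was near that of *dpy-7p::old-1* animals, which had 49.4, 57.3 and 76.1 CPM, and the difference between the 2 rises was not past the threshold (log2 0.41, standard error 0.36, adjusted p = 0.632 by the same test). Counts of the array and of the endogenous gene cannot be told apart.

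*flor-1*, the gene of the pseudokinase that acts with OLD-1, had 15.3, 7.98 and 8.98 CPM in *old-1p::old-1* animals, against 20.4, 23.6 and 26 CPM in non-transgenic animals. Every transgenic library lay below every non-transgenic one, by a log2 fold change of -1.11 (standard error 0.32) that did not pass the threshold (adjusted p = 0.203, edgeR's quasi-likelihood test). The difference of this change from that of *dpy-7p::old-1* animals in log2 units was -1.39 (standard error 0.38, adjusted p = 0.0794), and from that of extract in N2 it was -1.44 (standard error 0.41, adjusted p = 0.0712). Of the other genes whose promoters or sequences the transgenes hold, *chil-27* had 6.35, 2.08 and 2.12 CPM in *old-1p::old-1* animals and 0.081, 0 and 0 CPM in non-transgenic animals. *col-12*, a cuticle collagen, had 225, 261 and 113 CPM against 370, 350 and 310 CPM in non-transgenic animals, and *bus-1* had 6.70, 1.25 and 0.639 CPM against 4.66, 4.44 and 10.9 CPM, with overlap.

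A feature shared by both groups bears on what the non-transgenic animals are. *C56A3.4*, *C56A3.5* and *Y102A5C.36*, which were chosen after their values were seen, had 0 counts in all 3 *old-1p::old-1* and all 3 non-transgenic libraries. The 6 libraries of the deletion mutant *old-1(ok1273)* also had 0 counts of each, whereas each N2 library had between 101 and 832 counts of these genes. *old-1* itself had 0.974, 0.619 and 0.588 CPM in the non-transgenic animals, below the 1.31, 1.1 and 1.47 CPM of animals with the hygromycin resistance marker and the 2.98, 1.60 and 1.86 CPM of untreated N2. In counts these were 14 to 24 per library, beside 18 to 31 in untreated *old-1(ok1273)*, and the CPM values of the experiments were scaled separately. The labels give no *old-1* mutation for these animals, whereas the study's text describes the array in *old-1(ok1273)*. Whether the non-transgenic animals carry that deletion was not tested, and if they do, they are not wild type at *old-1* and the comparison is one of mutants with and without the array.

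Across all 16285 genes tested, 15 rose and 4 fell in *old-1p::old-1* animals at p under 0.01 and an adjusted p under 0.1, shares of 0.0921% and 0.0246% and 0.117% in all, 56% had a log2 fold change above 0, and 19.2% of genes had an unadjusted p under 0.05. The genes that rose included *old-1*, 5 ORR genes, *cnc-2*, of the antimicrobial peptides, and *thn-2*, of the thaumatins. The number depended on single libraries, and the square root of the common dispersion was 0.427. Leaving out *old-1p::old-1* replicate A, the least yolk-rich of them, 3750 genes passed, and without replicate C of the non-transgenic animals 20 passed, 11 of them among the 19. Without replicate B or C of *old-1p::old-1* animals, or replicate A of the non-transgenic animals, *old-1* alone passed, and without replicate B of the non-transgenic animals no gene passed, although 1305 had an unadjusted p under 0.05. DESeq2's Wald test called 1440 genes on the 6 libraries, 564 higher and 876 lower, and the fit over all 30 libraries 5912, and both held all 19. The labels do not say that the replicates were separate cultures, so these p-values measure only the spread between the samples.

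Of the 5 ORR genes that rose, *ddn-1* (chromosome V, 8758820 to 8760516) had 45.1, 26.3 and 35 CPM in *old-1p::old-1* animals, against 2.47, 1.89 and 2.1 CPM in non-transgenic animals. Every transgenic library stood far above every control, with a log2 fold change of 4.04 (standard error 0.31, adjusted p = 0.0254, edgeR's quasi-likelihood test). *vsra-1*, which encodes an Argonaute protein, a small RNA-binding factor, had 180, 169 and 181 CPM in *old-1p::old-1* animals and 37.5, 38.5 and 51.7 CPM in non-transgenic animals (log2 fold change 2.05, adjusted p = 0.0444). *chil-1* had 21.1, 16 and 17.1 CPM against 3.0, 2.03 and 3.11 CPM in non-transgenic animals (log2 fold change 2.73, adjusted p = 0.0605). These 3 genes had narrow spreads in both groups and were already measurable in the controls. *Y71H2AR.2* and *F56A6.5*, in contrast, were nearly silent there. *Y71H2AR.2* had 12, 7.53 and 9.82 CPM in *old-1p::old-1* animals and 2 counts in all 3 non-transgenic libraries together, a ratio of 386 (95% counting interval 107 to 3195). *F56A6.5* had 4.03, 1.74 and 2.99 CPM, or 248 counts, and also 2 counts in the non-transgenic libraries (95% counting interval of the ratio 31.7 to 962). Intervals and limits of this kind cover counting error only.

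**Figure D2:**
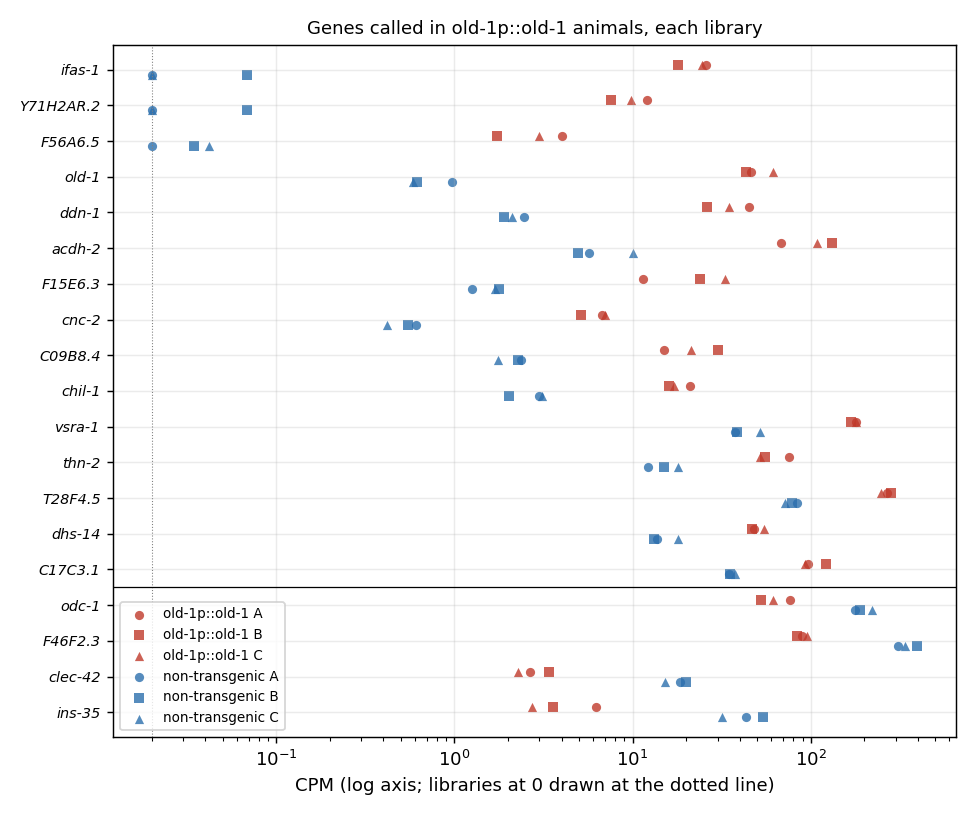
The CPM of the 19 genes that passed the test, on a log axis, in each library of *old-1p::old-1* (red, upper) and non-transgenic (blue, lower) animals, with the 15 that rose above the black line and the 4 that fell below it. In every row the 3 red points lie apart from the 3 blue ones, from *ifas-1* with 2 counts in all non-transgenic libraries to *ins-35*, the largest fall among the genes that passed.

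The other 9 genes that rose besides *old-1* are not on the ORR list. *ifas-1* (chromosome II, 3687791 to 3688719) had 25.8, 17.9 and 24.5 CPM in *old-1p::old-1* animals and 2 counts over the 3 non-transgenic libraries, a ratio of 887 (95% counting interval 245 to 7333). *cnc-2*, a caenacin gene of the kind that the epidermis expresses on fungal infection and wounding, had 6.70, 5.14 and 6.99 CPM in *old-1p::old-1* animals, against 0.608, 0.550 and 0.420 CPM in non-transgenic animals. *thn-2*, whose product resembles the thaumatin family of plant defence proteins, had 75.8, 55.4 and 52.3 CPM against 12.2, 15 and 17.9 CPM in non-transgenic animals. Their log2 fold changes were 3.56 and 2.02 for *cnc-2* and *thn-2* (adjusted p = 0.0444 and 0.0918, edgeR's quasi-likelihood test). Metabolic enzymes were among the rest. The acyl-CoA dehydrogenase gene *acdh-2* had 68.4, 131 and 109 CPM in *old-1p::old-1* animals and 5.72, 4.95 and 10 CPM in non-transgenic animals, and the short-chain dehydrogenase gene *dhs-14* had 48.4, 46.9 and 55 CPM against 13.8, 13.2 and 18.1 CPM. *T28F4.5* had 268, 284 and 248 CPM against 84.2, 78.9 and 71.9 CPM in non-transgenic animals, the highest level of any gene that rose. *C09B8.4*, *F15E6.3* and *C17C3.1* had log2 fold changes of 3.38, 3.85 and 1.53. *C17C3.1* is annotated across *C17C3.15* on chromosome II, so their counts could be divided between the 2 genes.

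The 4 genes that fell encode a polyamine enzyme, an insulin-like peptide, a C-type lectin and a protein without a symbol. *odc-1* encodes ornithine decarboxylase, which makes putrescine at the start of polyamine synthesis, and had 76.3, 52.8 and 61.2 CPM in *old-1p::old-1* animals, against 178, 190 and 222 CPM in non-transgenic animals. *ins-35* had 6.25, 3.59 and 2.72 CPM in *old-1p::old-1* animals and 43.1, 54 and 31.6 CPM in non-transgenic animals, the largest fall, with a log2 fold change of -3.35 (standard error 0.40, adjusted p = 0.0808, edgeR's quasi-likelihood test). *clec-42* had 2.67, 3.4 and 2.28 CPM against 18.6, 20.0 and 15.1 CPM in non-transgenic animals. *F46F2.3* had 89.6, 84.2 and 95.2 CPM in *old-1p::old-1* animals and 310, 396 and 339 CPM in non-transgenic animals. In each of the 4, every transgenic library lay below every non-transgenic one.

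The ORR list holds 50 genes that the study chose for their response to extract in data that include N2 libraries of this series, so it is not independent evidence for the direction of the response. Of these, 44 passed the filter on low counts, and 18 of the 44 were under the count minimum in at least 1 non-transgenic library, so they passed through the transgenic libraries. With no filter, all 3 *old-1p::old-1* libraries were higher than all 3 non-transgenic ones for 41 of the 50 genes and lower for none, against 9.46% of all 19287 genes with a count for the higher direction. Of the 26 genes at or above the count minimum in every non-transgenic library, 20 had no overlap in the higher direction, against 9.64% of the 15123 such genes in all. Only 5 of the 44 passed the test, and 36 had an unadjusted p under 0.05, against 0.117% and 19.2% of all tested genes. The smallest adjusted p among those that missed the threshold was 0.111. Among the 44 genes the log2 fold change ran from -0.06 to 9.15 with a median of 3.24, which was the same with the 2 genes without non-transgenic counts at their lower bounds, and the median of all tested genes was 0.11. With the yolk mean of each library, which the groups do not share, as a covariate, 37 ORR genes passed, and DESeq2's Wald test called 36. All of these were higher, against 1360 and 564 of all 16285 genes called higher in the 2 runs.

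**Figure D3:**
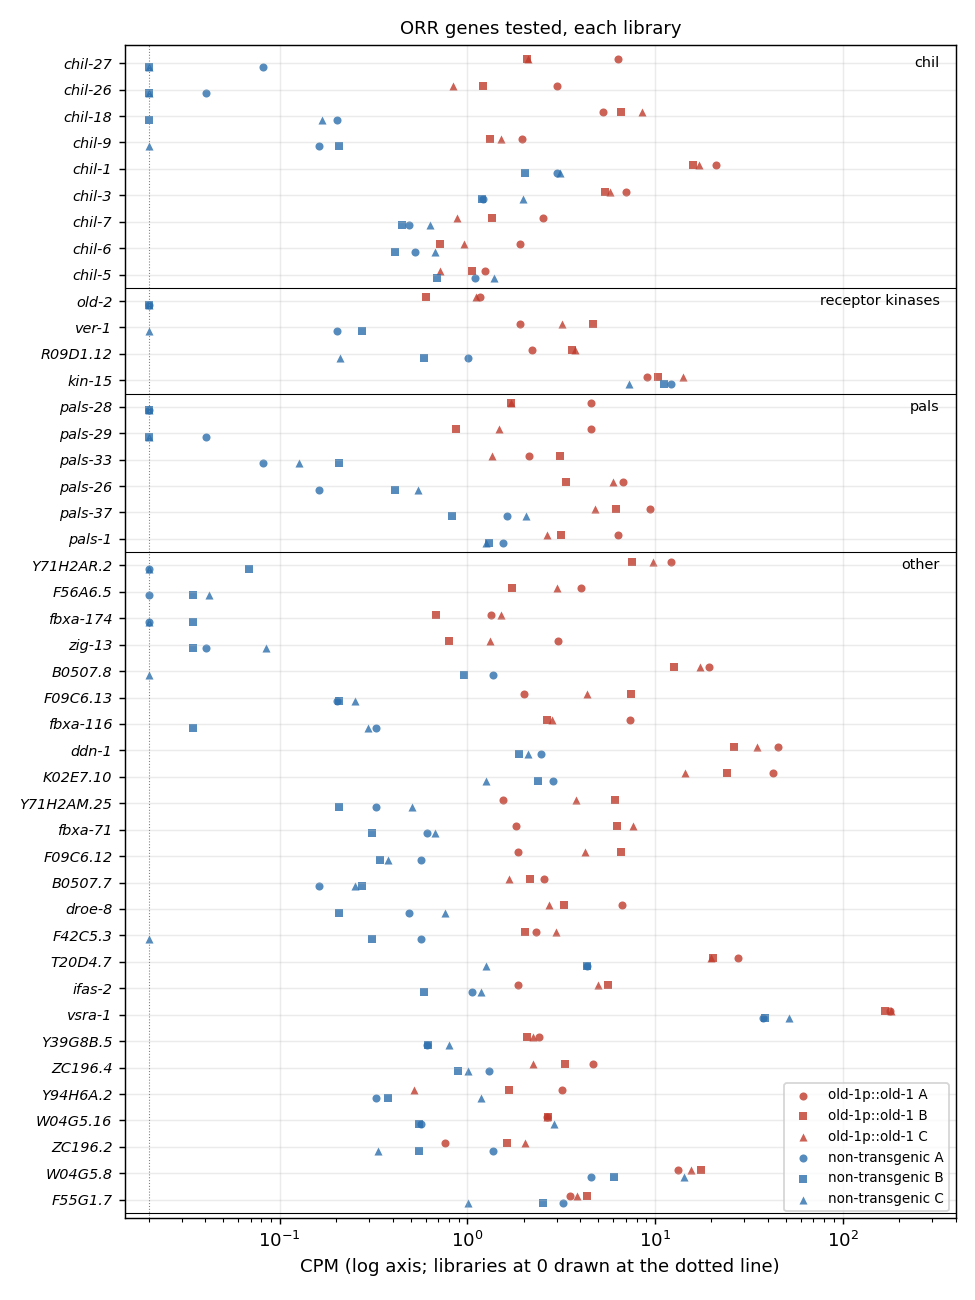
The CPM of the 44 ORR genes tested, on a log axis, in each library of *old-1p::old-1* (red, upper) and non-transgenic (blue, lower) animals, grouped as *chil* genes, receptor kinases, *pals* genes and other genes. Red and blue points are apart for 38 genes and overlap for *chil-5*, *kin-15*, *Y94H6A.2*, *W04G5.16*, *ZC196.2* and *W04G5.8*.

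Among the *chil* genes, 8 of the 9 on the ORR list had no overlap, each higher in *old-1p::old-1* animals (88.9%, against 10.2% of all tested genes). *chil-27*, whose promoter drives the reporter of the response, had a total of 2 counts in the non-transgenic libraries and a ratio of 144 (95% counting interval 39.5 to 1193), and its log2 fold change was 6.84 (adjusted p = 0.115, edgeR's quasi-likelihood test). *chil-26*, next to it on chromosome II, had 3.02, 1.21 and 0.838 CPM in *old-1p::old-1* animals and a single count in the non-transgenic libraries. Both passed the filter on low counts through the transgenic libraries, as did *chil-9* and *chil-18* among the 8. In *chil-26* and *chil-27* replicate A of the transgenic animals, the least yolk-rich of the 3, was the highest. *chil-18* had 5.27, 6.62 and 8.54 CPM in *old-1p::old-1* animals, against 0.203, 0 and 0.168 CPM in non-transgenic animals, and there replicate C was the highest. *chil-5* had 1.24, 1.06 and 0.719 CPM against 1.1, 0.688 and 1.39 CPM in non-transgenic animals, so no change was detectable at this depth. Over the whole *chil* family, 23 genes were tested, 1 passed and 11 had no overlap in the higher direction (47.8%, against 10.2% of all tested genes), with a median log2 fold change of 0.98. The median was 0.42 without transgenic replicate A, 0.38 over the genes with a mean of at least 1 CPM and 0.39 with limma on log2(TPM + 1).

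The *chil* genes include a cluster that surrounds *old-1* itself. Within 30000 bases on either side of *old-1*, 21 other genes were tested, of which 10 were *chil* genes or *old-2*, another gene of the KIN-16 family. Of these 10, 8 had no overlap in the higher direction, against 10.2% of all tested genes, the median log2 fold change was 1.82, and *chil-5* and *chil-2* overlapped. *chil-9* and *old-2* passed the filter on low counts through the transgenic libraries. The remaining 11 genes of the window had a median of -0.28, with 1 without overlap in the higher and 5 in the lower direction, against 10.2% and 14.1% of all tested genes. *chil-1*, the one that passed, lies directly beside *old-1*, and the annotated ends of the 2 genes share 15 bases. Nearly all of its counts came from the transcript C08H9.4b.1, with 665, 407 and 405 counts in *old-1p::old-1* animals and 72, 59 and 69 in non-transgenic animals, and whether reads of the array were counted there was not tested. *chil-1* was also higher in *dpy-7p::old-1* animals, where it had 13, 12 and 14.6 CPM against 0.876, 0.0996 and 0.753 CPM with the hygromycin resistance marker alone.

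Of the 4 receptor kinase genes of the list, 3 had no overlap, each higher (75%, against 10.2% of all tested genes). Of the 3, *old-2* and *ver-1* passed the filter on low counts through the transgenic libraries, and *R09D1.12* did not depend on them for it. *old-2* had 1.17, 0.605 and 1.1 CPM in *old-1p::old-1* animals and 0 counts in all non-transgenic libraries, at least 25.2-fold higher when the non-transgenic total is set at a floor of 3 counts. *ver-1*, which encodes a receptor related to those of vascular endothelial growth factor in vertebrates, had 1.90, 4.65 and 3.19 CPM against 0.203, 0.275 and 0 CPM in non-transgenic animals. *R09D1.12* had 2.22, 3.63 and 3.75 CPM against 1.01, 0.585 and 0.210 CPM in non-transgenic animals. *kin-15*, another member of the KIN-16 family, had 9.11, 10.4 and 14.1 CPM in *old-1p::old-1* animals and 12.2, 11.1 and 7.31 CPM in non-transgenic animals, which overlap. None of the 4 passed edgeR's test, although 3 had an unadjusted p under 0.05, against 19.2% of all genes. DESeq2's Wald test called those 3 higher, against 564 of all 16285 genes.

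The *pals* genes form a large family of proteins of mostly unknown biochemical function, several of which mark the intracellular pathogen response to microsporidia and viruses. All 6 of those tested from the ORR list had no overlap, each higher in *old-1p::old-1* animals, against 10.2% of all tested genes. Of the 6, *pals-26*, *pals-28*, *pals-29* and *pals-33* were under the count minimum in at least 1 non-transgenic library. They were thus tested because of the transgenic libraries, which in part builds in the lack of overlap. None passed edgeR's test, although all 6 had an unadjusted p under 0.05, against 19.2% of all genes. Over the whole *pals* family DESeq2's Wald test called 11 higher and 1 lower, against 564 and 876 of all 16285 genes. *pals-26* had 6.73, 3.37 and 5.95 CPM in *old-1p::old-1* animals and 0.162, 0.413 and 0.546 CPM in non-transgenic animals. *pals-28*, beside it on chromosome III, had 4.54, 1.7 and 1.72 CPM and 0 counts in every non-transgenic library, at least 71.9-fold higher with the same floor. It passed the filter on low counts through the transgenic libraries. Across the family, 12 of the 27 *pals* genes tested had no overlap in the higher and 2 in the lower direction, against 10.2% and 14.1% of all genes, and the median log2 fold change was 0.90. The median was 0.42 without transgenic replicate C, 0.56 with the yolk covariate and 0.44 with limma on log2(TPM + 1). *pals-32*, which is not on the ORR list, had 5.65, 6.1 and 5.75 CPM against 0.690, 1.41 and 1.05 CPM in non-transgenic animals (log2 fold change 2.47, adjusted p = 0.115). Of 9 other genes of the intracellular pathogen response, 3 had no overlap in the higher direction (33.3%, against 10.2% of all genes). *skr-5* and *skr-4*, which encode Skp1-related ubiquitin ligase subunits, had log2 fold changes of 1.06 and 0.67, and their cullin partner *cul-6* one of 0.40, all with no overlap and none past the threshold, while DESeq2's Wald test called 2 genes of this list higher, against 564 of all 16285 genes.

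Of the 25 remaining ORR genes tested, 4 passed and 21 had no overlap (84%), all higher, against 0.0921% and 10.2% of all tested genes. Among them, *Y71H2AR.2*, *F56A6.5*, *B0507.7*, *B0507.8*, *fbxa-174*, *fbxa-116*, *zig-13* and *F42C5.3* were under the count minimum in at least 1 non-transgenic library. Those genes passed the filter on low counts through the transgenic libraries. *B0507.7* and *B0507.8*, which flank *ddn-1* on chromosome V, had 2.57, 2.16 and 1.68 CPM and 19.5, 13 and 17.4 CPM in *old-1p::old-1* animals, against 0.162, 0.275 and 0.252 CPM and 1.38, 0.963 and 0 CPM in non-transgenic animals. *K02E7.10* had 42.7, 24.3 and 14.4 CPM in *old-1p::old-1* animals and 2.88, 2.37 and 1.26 CPM in non-transgenic animals. *T20D4.7* had 27.8, 20.5 and 19.8 CPM against 4.34, 4.33 and 1.26 CPM in non-transgenic animals. The libraries did not keep 1 order across these genes. Replicate A of the transgenic animals was the highest for *K02E7.10*, *zig-13* and *fbxa-116*, but the lowest for *F09C6.13*, with 2.0, 7.45 and 4.35 CPM, for *F09C6.12*, with 1.87, 6.62 and 4.23 CPM, and for the F-box gene *fbxa-71*, with 1.81, 6.28 and 7.67 CPM.

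The genes with overlap differed in how they overlapped. *W04G5.8* had 13.2, 17.5 and 15.6 CPM in *old-1p::old-1* animals, against 4.54, 6.09 and 14.2 CPM in non-transgenic animals, and its neighbour *W04G5.16* had 2.67, 2.69 and 2.68 CPM against 0.568, 0.550 and 2.90 CPM. In both it was replicate C of the non-transgenic animals, the least yolk-rich library, that reached the transgenic level. *Y94H6A.2* had 3.21, 1.66 and 0.519 CPM in *old-1p::old-1* animals and 0.325, 0.378 and 1.18 CPM in non-transgenic animals. *ZC196.2* had 0.762, 1.63 and 2.04 CPM against 1.38, 0.550 and 0.336 CPM in non-transgenic animals. The 6 genes that did not pass the filter, *pals-5*, *pals-9*, *clec-203*, *srw-23*, *thn-4* and *Y6E2A.7*, had between 14 and 30 counts over the *old-1p::old-1* libraries and between 0 and 12 over the non-transgenic ones.

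Much of the ORR list lies in short runs along the chromosomes. With a gap of at most 20000 bases, 31 of the 50 genes fell into 9 runs of at least 2 genes. In the run around *ddn-1*, 5 of 6 genes were higher without overlap, and in that around *old-1*, 6 of 7, against 10.2% of all tested genes. The pair *W04G5.16* and *W04G5.8* on chromosome I overlapped together, whereas the pair *chil-26* and *chil-27*, the pair *pals-26* and *pals-28* and the pair *zig-13* and *ver-1* were each without overlap. However, *chil-26*, *chil-27*, *pals-26*, *pals-28*, *zig-13* and *ver-1* passed the filter on low counts through the transgenic libraries. So did *chil-9*, *old-2*, *chil-18*, *B0507.7* and *B0507.8* in the longer runs. *kin-15* overlapped although *chil-18* and *R09D1.12*, in the same run, did not. Genes of a run share their neighbourhood and are not independent of each other.

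The response to the array was set beside that of N2 animals to *M. humicola* extract, with which it shares no library. Since the ORR genes were picked for a large response to extract in data that include these N2 libraries, a smaller response here is in part built into the list, and the counts below are a description that cannot be read against those of all genes. All 50 ORR genes had a smaller log2 fold change in *old-1p::old-1* animals than with extract, and the difference passed the threshold for 36 of them (72%) and for none in the other direction, against 6.27% of all 16845 genes called smaller and 5.01% called larger (edgeR's quasi-likelihood test of the difference). Among the 44 genes tested in both, the median difference was -3.77 on the log2 scale. *ddn-1* had 1057, 973 and 1040 CPM with extract, against 2.94, 1.97 and 2.54 CPM in untreated N2, a log2 fold change that exceeded the one in *old-1p::old-1* animals by a difference of -4.67 (standard error 0.33, adjusted p = 0.000186). *vsra-1* had 553, 544 and 553 CPM with extract and 19.1, 22.8 and 24.1 CPM in untreated N2, and its difference was -2.63 (standard error 0.20, adjusted p = 0.000196). *W04G5.16* had the largest difference of the ORR genes that passed, -7.64 (standard error 1.04, adjusted p = 0.0091). *old-1* itself differed the other way, by 5.58, since extract left it at 3.15, 3.35 and 2.52 CPM against 2.98, 1.60 and 1.86 CPM in untreated N2. The yolk mean of the N2 libraries was 2.34 to 2.46 with extract and 2.45, 5.13 and 5.67 without, over the 13 yolk and oocyte genes tested there, a range that replicate C of the non-transgenic animals alone shared, and the part of stage in these differences was not tested. Without replicate B of the non-transgenic animals 21 ORR genes had a smaller response past the threshold.

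Against *dpy-7p::old-1* animals, in which the same receptor gene is driven by an epidermal promoter, fewer of the ORR genes differed past the threshold. The response was smaller for 11 of 50 ORR genes (22%) and larger for none, against 2.84% of all 16890 genes called smaller and 3.2% called larger. A smaller log2 fold change, past the threshold or not, was seen for 42 of the 50. *chil-5* differed by -3.88 (standard error 0.55, adjusted p = 0.00616), *W04G5.8* by -4.54 (standard error 0.64, adjusted p = 0.00580) and *chil-3* by -2.36 (standard error 0.37, adjusted p = 0.0105), all by edgeR's quasi-likelihood test of the difference. Among the 44 genes tested in the array experiment, the difference passed for none of the receptor kinases or *pals* genes. It was below 0 for all 4 receptor kinases (median -1.67) and for 3 of the 6 *pals* genes (median 0.20). For *old-2*, without counts in the non-transgenic libraries, and *pals-29* (standard error 3.01), the errors were too wide to show a difference. The estimated difference was near 0 for *vsra-1*, at -0.06 (standard error 0.25), and for *R09D1.12*, at -0.16 (standard error 0.69), an error wide enough to hold a sizeable difference. The yolk means were 9.55 to 10.03 in *dpy-7p::old-1* animals and 8.58 to 9.13 with the hygromycin resistance marker alone.

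**Figure D4:**
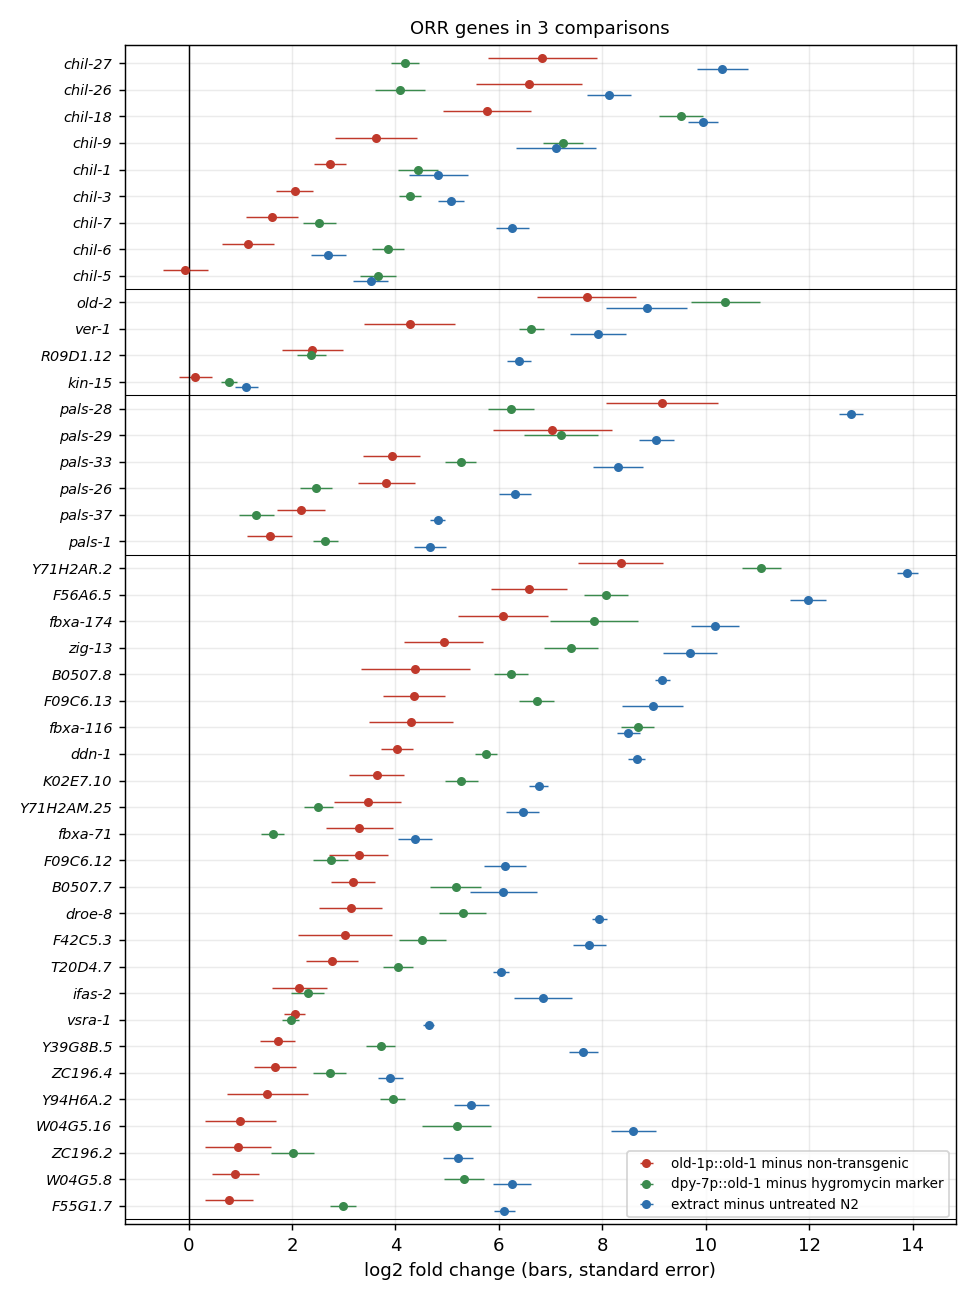
The log2 fold change of each of the 44 ORR genes in *old-1p::old-1* animals (red), in *dpy-7p::old-1* animals (green) and in N2 with extract (blue), each against its own control, with bars for the standard error and the genes grouped as in the plot of single libraries. The medians were 3.24, 4.35 and 6.81, and fold changes of genes without counts in a control, such as *pals-28* and *old-2*, depend on the prior count.

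The genes that passed in *old-1p::old-1* animals were not all raised in the other experiments. Of the 15 that rose, 8 (53.3%, and 0.624% of the 1283 genes raised by extract) also rose with extract, and 7 (46.7%, and 0.174% of the 4019 genes raised in *dpy-7p::old-1* animals) also rose under the *dpy-7* promoter, against 8.13% and 24.9% of all genes in those comparisons. These shares are in part built in, since 5 of the 15 are ORR genes and all 50 ORR genes rose in both comparisons. *old-1* is itself the transgene of *dpy-7p::old-1* animals. Besides these, *ifas-1* rose in both comparisons, and *T28F4.5* and *thn-2* rose with extract only. *cnc-2* had 0.305, 0.432 and 0.420 CPM with extract and 0.478, 0.534 and 0.418 CPM in untreated N2, and 0.712, 0.636 and 0.545 CPM in *dpy-7p::old-1* animals against 0.637, 0.498 and 0.595 CPM with the hygromycin resistance marker. Its level was thus low in all of these libraries, and its change in *old-1p::old-1* animals was larger by 3.81 and 3.29 on the log2 scale (adjusted p = 0.00376 and 0.00283, edgeR's quasi-likelihood test). For 7 of the 15, the change in *dpy-7p::old-1* animals was a fall past the threshold, against 20.9% of all genes in that comparison. *acdh-2* had 78.0, 83.3 and 54.5 CPM in *dpy-7p::old-1* animals, against 148, 146 and 183 CPM with the hygromycin resistance marker, and *dhs-14* had 18, 15.5 and 19.6 CPM against 48.3, 55.4 and 63.0 CPM. In *acdh-2* the non-transgenic animals here, at 4.95 to 10 CPM, were below both of those groups. *thn-2* rose with extract, to 322, 156 and 194 CPM against 7.79, 14.8 and 15.4 CPM in untreated N2, and fell in *dpy-7p::old-1* animals, to 30.7, 35.2 and 32.8 CPM against 46.7, 61.4 and 50.3 CPM with the hygromycin resistance marker.

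Other defence genes were described by the lists they belong to. Of 17 epidermal antimicrobial peptide genes, 8 had no overlap in the higher and none in the lower direction (47.1% and 0%, against 10.2% and 14.1% of all genes), the median log2 fold change was 0.66, and 1, *cnc-2*, passed. The direction of the list rested on replicate A of *old-1p::old-1* animals, without which the median was -0.13, with 4 genes called higher and 2 lower, and limma voom with quality weights called 7 higher and 5 lower at a median of 0.29. Over all genes, 1575 were called higher and 2175 lower without that replicate, and 5708 and 4240 with voom. *nlp-29*, the best known of them, had 82.1, 52.7 and 53.3 CPM in *old-1p::old-1* animals, against 23.5, 24.8 and 30.5 CPM in non-transgenic animals (log2 fold change 1.25, adjusted p = 0.150). *nlp-28* had 3.02, 12.3 and 18.1 CPM against 1.62, 1.86 and 0.378 CPM in non-transgenic animals, so its level within each group followed the yolk genes. The 18 genes of epidermal immune signalling lay lower, with a median of -0.34 and no overlap in the lower direction for 8 (44.4%, against 14.1% of all genes) and in the higher direction for none. The median was -0.12 with voom quality weights and -0.16 with limma on log2(TPM + 1). *snf-12*, a transporter gene needed for the induction of these peptides, had 4.95, 4.54 and 4.23 CPM in *old-1p::old-1* animals and 10.7, 9.46 and 8.53 CPM in non-transgenic animals, and *elt-3*, a GATA transcription factor gene of the epidermis, had 19.2, 19.2 and 22.6 CPM against 27.4, 29.2 and 35.6 CPM. None of the 18 passed in edgeR's test, 6 had an unadjusted p under 0.05 (against 19.2% of all genes) and DESeq2's Wald test called 2 lower (against 876 of all 16285 genes).

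C-type lectin genes, which encode secreted or membrane proteins that include many infection-responsive members, were lower without overlap for 37 of 146 (25.3%, against 14.1% of all genes) and higher for 6 (4.11%, against 10.2%), with a median of -0.32, which was -0.74 without transgenic replicate A and -0.07 with limma on log2(TPM + 1), and 1 that passed, *clec-42*. *clec-265* had 29.7, 30.1 and 26.9 CPM in *old-1p::old-1* animals, against 83.2, 86.4 and 61.3 CPM in non-transgenic animals. F-box A genes, of which 3 are on the ORR list, were higher without overlap for 34 of 141 (24.1%, against 10.2% of all genes) and lower for 5 (3.55%, against 14.1%). None passed in edgeR's test, with 23 higher and 1 lower at an unadjusted p under 0.05, against 19.2% of all genes in either direction, and DESeq2's Wald test called 11 higher, against 564 of all 16285 genes. The median of 0.31 was -0.05 without transgenic replicate A. Of these, *fbxa-28*, not an ORR gene, had 2.06, 0.681 and 1.04 CPM in *old-1p::old-1* animals and 0 counts in the non-transgenic ones. It passed the filter on low counts through the transgenic libraries. Among 4 polyamine genes, *odc-1*, *smd-1* and *spds-1*, whose products take part in the synthesis of spermidine, lay lower without overlap. That was 3 of the 4 (75%, against 14.1% of all genes), and *argn-1* overlapped. Unlike *odc-1*, *smd-1* and *spds-1* did not pass (adjusted p = 0.183 and 0.212, edgeR's quasi-likelihood test). *smd-1* had 270, 250 and 274 CPM against 374, 432 and 553 CPM in non-transgenic animals, and *spds-1* had 37.6, 21.3 and 20.0 CPM against 44.9, 54.3 and 56.2 CPM. Of 27 insulin-like peptide genes, 2 were higher without overlap (7.41%, against 10.2% of all genes) and 6 lower (22.2%, against 14.1%). Among these, *ins-7* had 4.86, 7.0 and 5.95 CPM in *old-1p::old-1* animals, against 1.74, 1.45 and 1.55 CPM in non-transgenic animals, whereas *daf-28* had 4.83, 7.56 and 7.07 CPM against 24.5, 25.7 and 13.8 CPM. Neither *ins-7* nor *daf-28* passed (adjusted p = 0.117 and 0.150, edgeR's quasi-likelihood test). Of 41 glutathione S-transferase genes, 11 were higher without overlap (26.8%, against 10.2% of all genes) and 4 lower (9.76%, against 14.1%). None passed, and the median of 0.03 was -0.36 without transgenic replicate A. The oxidative stress gene *gst-4*, one of them, had 73.4, 51.6 and 49.4 CPM against 19.5, 18.1 and 13.6 CPM in non-transgenic animals (adjusted p = 0.111, edgeR's quasi-likelihood test). *gst-1* also lay higher without overlap, and *gst-26* and *gst-27* lower.

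The share of ORR genes without overlap includes genes that passed the filter on low counts through the transgenic libraries. After the ORR genes, the ribosomal protein genes had the highest share of members without overlap in 1 direction among lists with at least 8 tested genes. Of 75 tested, 61 (81.3%, against 14.1% of all genes) were lower without overlap in *old-1p::old-1* animals and none higher, and the median log2 fold change was -0.56. None passed in edgeR's test, 62 had an unadjusted p under 0.05 (against 19.2% of all genes), and DESeq2's Wald test called 38 lower (against 876 of all 16285 genes). *rps-5* had 1521, 1418 and 1279 CPM in *old-1p::old-1* animals, against 2327, 2579 and 2242 CPM in non-transgenic animals. The median stayed below 0 in every alternative run, between -0.83 and -0.38. Genes of the molt and of the cuticle had medians below 0. Of 21 molting genes, 7 (33.3%, against 14.1% of all genes) were lower without overlap and 1 higher, with a median of -0.88, and of 158 cuticle collagens 41 (25.9%) were lower and 3 higher, with a median of -0.45. Without transgenic replicate A the medians were -2.05 for molting genes and -1.1 for collagens, and voom quality weights gave -1.62 for molting genes. *nhr-25*, a nuclear receptor gene of the molt, had 9.24, 6.51 and 5.67 CPM in *old-1p::old-1* animals and 28.7, 25.1 and 13 CPM in non-transgenic animals. The mean level of the molting genes was 6.60, 5.50 and 4.84 in the *old-1p::old-1* libraries A, B and C, highest where the yolk level was lowest, against 6.61, 6.67 and 6.88 in non-transgenic animals, and the part of stage in these lists was not tested.

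Marker lists of somatic tissues had medians below 0, and the germline list a median above 0. Without overlap, 6 of 9 intestine, 4 of 11 body wall muscle, 4 of 9 pharynx, 5 of 12 neuron and 2 of 10 epidermis markers lay lower and none higher, with medians from -0.75 for pharynx to -0.41 for muscle, and 14.1% of all genes lay lower, so the epidermis markers were near the share of all genes. Without transgenic replicate A the medians were -1.86 for epidermis, -0.93 for intestine, -0.92 for muscle, -1.25 for pharynx and -0.87 for neurons, and that of epidermis was -0.77 without replicate A of the non-transgenic animals. That of muscle was -0.23 with the yolk covariate and that of neurons -0.33 with limma on log2(TPM + 1). The intestinal actin gene *act-5* had 777, 617 and 520 CPM in *old-1p::old-1* animals, against 1326, 1513 and 1588 CPM in non-transgenic animals. Of 18 germline genes, 5 (27.8%, against 10.2% of all genes) lay higher without overlap and none lower, with a median of 0.58. *glh-2*, which encodes a germ granule helicase, had 92.2, 238 and 278 CPM against 56.4, 62.0 and 77.6 CPM in non-transgenic animals. No gene of these tissue lists passed in edgeR's test. At an unadjusted p under 0.05 there were 4 intestine, 3 muscle, 3 pharynx, 5 neuron and 2 epidermis markers lower, 1 epidermis marker higher and 7 germline genes higher, and DESeq2's Wald test called 4 intestine, 1 pharynx and 2 neuron markers lower and 3 germline genes higher. Over all 16285 genes, 19.2% had such a p in either direction, and DESeq2's Wald test called 876 lower and 564 higher. In whole animals, fewer cells of a type and less RNA per cell cannot be told apart, and the part of tissue makeup in the lists above was not tested.

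**Figure D5:**
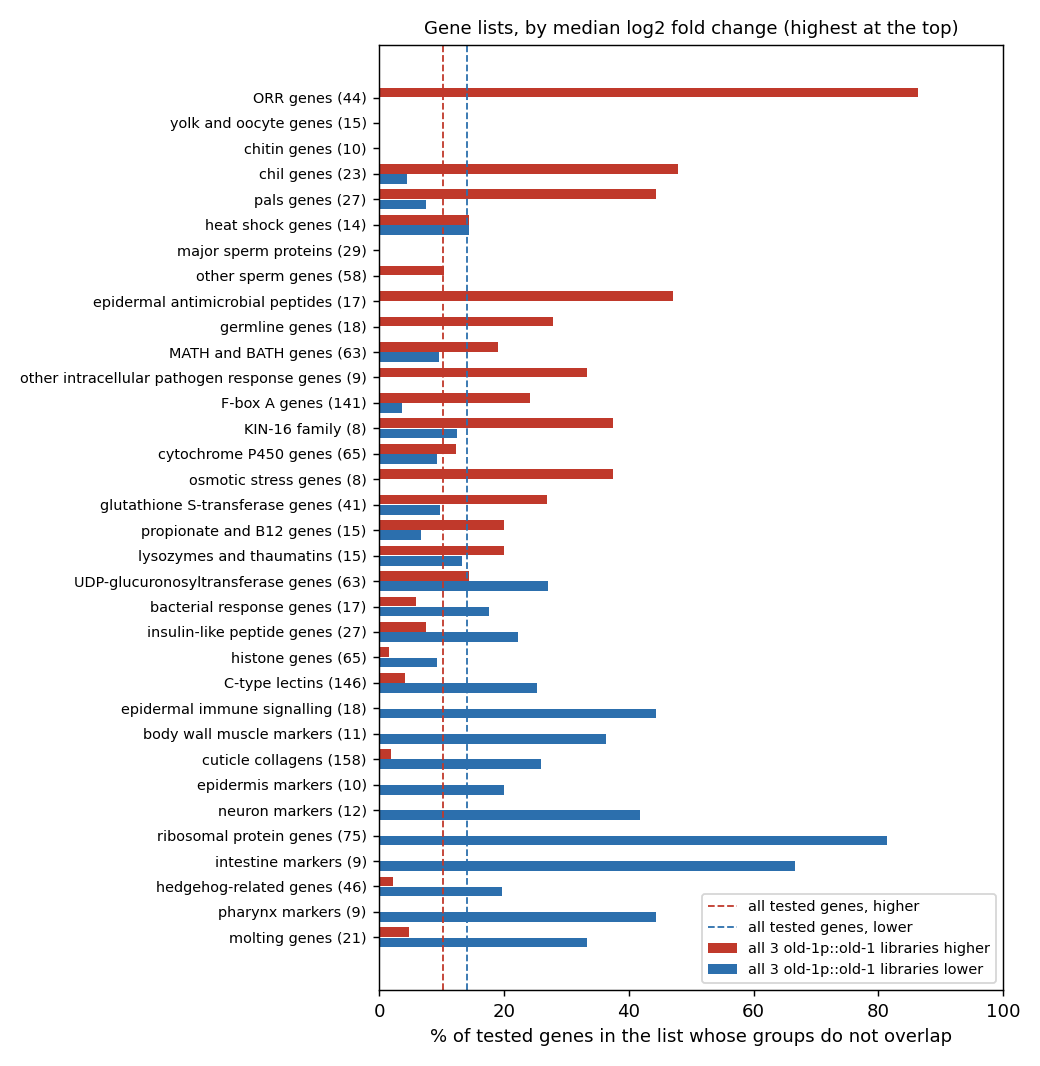
For each list with at least 8 tested genes (number in brackets), the percentage of genes whose 3 *old-1p::old-1* libraries were all higher (red) or all lower (blue) than the 3 non-transgenic ones, ordered by the median log2 fold change. Dashed lines mark the shares over all tested genes, 10.2% higher and 14.1% lower. The ORR genes reached 86.4% higher and the ribosomal protein genes 81.3% lower, while the yolk and oocyte genes and the major sperm proteins had none in either direction. Of the 44 ORR genes, 18 passed the filter on low counts through the transgenic libraries, and 20 of the other 26 were higher without overlap. Genes of other lists, such as *fbxa-28*, also passed it through the transgenic libraries.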

How the data were processed

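Total RNA of whole L4 animals was sequenced, with 3 libraries in each group. The authors pseudoaligned the reads with kallisto to WormBase WS283 transcripts and deposited estimated counts per transcript with an effective length, and sleuth is named for their tests. The versions are not given in the sources used here. Isoforms of a gene and copies of similar sequence share reads in such estimates. Of 37058 transcripts, 30413 were matched to genes by name and 6631 by sequence name (61.8% and 38.2% of the counts), 2 were ambiguous and 12 had no match, which gave 19988 genes. Counts were summed per gene and rounded. Coordinates are from the Ensembl annotation of WBcel235.

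Groups were compared in R 4.3.3 with edgeR 4.0.16 (quasi-likelihood test, TMM scaling, count minimum 5 and total minimum 15), on the 6 libraries alone, with 4 residual degrees of freedom. A gene passed at p under 0.01 and a Benjamini-Hochberg adjusted p under 0.1. Differences from extract in N2 and from *dpy-7p::old-1* were interaction terms over 12 libraries. Depth was 24342790 to 30303505 estimated counts per library, and 95% counting intervals and floors of 3 counts cover counting error only. CPM is edgeR's count scaled to the TMM-adjusted library total. List means are of log2(CPM + 0.05). Alternatives used limma 3.58.1 and DESeq2 1.42.0, other scaling and filters, a replicate block, a yolk covariate and single libraries left out. The test was also run on simulated counts, drawn independently for each gene. These lack the shared yolk differences between libraries, so that run does not cover their effect on the test.

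Genes named were *old-1*, *flor-1* and the transgene-linked loci, all that passed, the ORR list, up to 4 genes of each list with the smallest unadjusted p, and the yolk and oocyte genes. Members and lists were chosen with earlier results of these data known. Lists are described by counts and medians, with no test.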

Additional observations from a re-analysis of the deposited data

Results flagged for a closer look

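The response in *old-1p::old-1* animals differed from that of N2 to extract, by edgeR's test of the difference on the log2 scale, for 36 ORR genes, all smaller, which the choice of that list on the extract response of these N2 libraries in part builds in, and for these genes that passed the comparison itself or act with *old-1*. It was larger for *old-1* by 5.58, *cnc-2* by 3.81, *acdh-2* by 3.82, *C09B8.4* by 3.25, *F15E6.3* by 2.33, *dhs-14* by 1.84 and *C17C3.1* by 1.68. The difference was negative for *ddn-1* (-4.67), *Y71H2AR.2* (-5.69), *F56A6.5* (-5.43), *vsra-1* (-2.63), *thn-2* (-2.16) and *chil-1* (-2.15), and also for the genes that fell, *ins-35* (-4.06), *clec-42* (-3.06) and *F46F2.3* (-1.23), and for *flor-1* (-1.44).

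Set against *dpy-7p::old-1* animals, 11 ORR genes had a smaller response. The difference was positive for *F15E6.3* (5.44), *C09B8.4* (5.22), *acdh-2* (4.90), *cnc-2* (3.29), *dhs-14* (3.25), *T28F4.5* (3.06), *thn-2* (2.58) and *C17C3.1* (2.42), of which all but *cnc-2* fell under the *dpy-7* promoter. It was negative for *clec-42* (-4.43), *ins-35* (-3.53), *F46F2.3* (-2.56), *ddn-1* (-1.85), *flor-1* (-1.39) and *odc-1* (-1.3). The experiments differ in strain and in yolk level, whose part in these differences was not tested.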

How the results depend on the processing

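The number of genes that passed, 19 with 5 ORR genes, was 19 or 20 under other size factors and filters. It was 9 (3 ORR) at an adjusted p under 0.05, 65 (15 ORR) with limma on log2(TPM + 1), 1440 (36 ORR) with DESeq2, 1919 (37 ORR) with the yolk covariate, 5912 (41 ORR) with all 30 libraries in the fit and 9948 (41 ORR) with voom quality weights. With a replicate block it was 0 (0 ORR), with 2110 genes at an unadjusted p under 0.05. Deviations of same-letter libraries from their group means correlated at -0.419, 0.272 and -0.429. With 3 libraries in each group and yolk levels that vary within both, these values cannot show whether same-letter samples were paired. Leaving out 1 library gave 0 to 3750 genes, of which 0 to 32 ORR. The ORR median log2 fold change of 3.24 was 2.99 with the yolk covariate, 1.40 with limma on log2(TPM + 1) and 2.93 to 3.42 without 1 library. The 36 ORR genes with a smaller response than to extract became 19 with the replicate block and 21 to 38 without 1 library. Of 100 named genes, these turned direction, none past the threshold in the main comparison: *chil-5* (-0.06) was 0.25 with the yolk covariate, 0.36 with voom, 0.03 with limma on log2(TPM + 1) and -0.41 to 0.18 without 1 library, *kin-15* (0.13) was -0.15, -0.08 and -0.15 to 0.28 with the yolk covariate, voom and without 1 library, and *vit-2* and *vit-6* were -0.32 and -0.38 with the yolk covariate. The causes were not tested. Depth limits genes with few counts, such as the 6 ORR genes that were not tested.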
